A study of Mus musculus with 6 samples.

Results

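The genes of the unfolded protein response and the integrated stress response were followed in primary mouse hepatocytes exposed to the inflammatory cytokine TNF. They are 32 genes, chosen by symbol from the 19764 genes of the deposited table: 14 chaperones and folding enzymes of the endoplasmic reticulum (ER), 7 stress sensors and transcription factors, 4 targets of the factors ATF4 and CHOP, and 7 genes of ER-associated degradation (ERAD). Each symbol was found once, and each passed the filter on low values. There were 3 libraries (TNF 1, 2 and 3) from cells given 1 ng/ml TNF and 3 (Control 1, 2 and 3) from cells given vehicle. The hepatocytes came from Bl6/N mice and carried no labelled genetic change. Cells of both groups had spent 16 h in a starvation medium (5 mM glucose) and received, for the 8 h of TNF or vehicle, 1 µM corticosterone to activate the glucocorticoid receptor and 10 µM WY-14643 to activate PPARα. The series asks how TNF acts on such starved hepatocytes. There was no group without corticosterone and WY-14643, and the sources used here give neither age nor sex of the mice.

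Proteins that enter the secretory pathway fold in the ER, and hepatocytes, which secrete most plasma proteins, carry a large load of them. When unfolded proteins build up, 3 sensors in the ER membrane respond: IRE1α splices the mRNA of XBP1, PERK phosphorylates the translation factor eIF2α, and ATF6 is cut in the Golgi to release a transcription factor. Together these raise ER chaperones and ERAD genes, which return misfolded proteins to the cytosol for destruction. Phosphorylated eIF2α slows translation in general but favours that of ATF4, and other kinases that answer to amino acid shortage, haem shortage or viral RNA act on the same site, hence the name integrated stress response. ATF4 and its partner CHOP drive genes of amino acid supply and redox balance. Splicing of XBP1, cleavage of ATF6 and phosphorylation of eIF2α act on RNA processing or protein and are not read by the transcript levels given here.

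Levels are in CPM, the usual unit of reads scaled to the size of each library, and the libraries held between 17612060 and 25114289 reads over genes. Changes are log2 differences of CPM + 1, TNF minus Control, tested with limma over 12293 genes. Libraries with the same replicate number moved together, so results are given from a fit without the number ("unpaired") and from one with the replicate number as a block ("blocked"). "Rose" and "fell" are used of genes with an adjusted p under 0.05 in the blocked fit. By that rule 20.6% of all genes tested were called, 9.4% higher and 11.2% lower, and the unpaired fit called 0.431%. Of the hepatocyte markers, Alb, the serum albumin gene, was at a mean of 33298 CPM with TNF and 34932 CPM in Control. Other hepatocyte markers, some of them low or lower with TNF, are given further below. As bulk RNA was measured, fewer cells of a type and less RNA per cell cannot be told apart.

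With TNF, Atf4, its partner Ddit3 and the ATF4 targets Chac1, Asns and Trib3 rose slightly, as did Hspa5, Pdia4 and Ern1. The ERAD gene Herpud1 fell. Of 14 ER chaperones and folding enzymes 10 did not pass, and 28.6% were called, against 20.6% of all genes tested. Among all 32 genes, 8 rose, 4 fell and 20 did not pass in the blocked fit. The 8 were Chac1, Ddit3, Hspa5, Pdia4, Ern1, Asns, Atf4 and Trib3, with log2 changes between 0.14 and 0.29. The 4 were Herpud1 (-0.61), Dnajb11 (-0.16), Dnajc3 (-0.13) and Sel1l (-0.12). The share that rose was 25%, against 9.4% of all genes tested, and the share that fell was 12.5%, against 11.2%; no test was made of the list. The changes were small: with 1.5-fold required beside the adjusted p, Herpud1 was the one member left (1.3% of all genes passed higher and 0.976% lower), and the median log2 change over the 32 genes was -0.02, against -0.01 over all genes tested. The blocked fit without replicate 1 called 8 members higher and 2 lower, without replicate 2 it called 6 and 4, and without replicate 3 it called 7 and 3. The genes called were not the same each time. Without replicate 2 the calls of Dnajb11, Sel1l, Trib3 and Asns were lost, and Xbp1 and Syvn1 were called lower.

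None of the 32 passed the unpaired limma fit, which called 0.358% of all genes higher and 0.0732% lower. At an unadjusted p under 0.05 that fit had 1 member higher and 2 lower, against 4.44% and 4.31% of all genes; limma-voom without the block called 0 too. The lowest unpaired adjusted p among them was 0.311, for Herpud1. The calls therefore rest on treating same-numbered libraries as pairs. Direction within pairs needs no fitted model, but it rests on the same pairing and on the scaling. In all 3 pairs, 11 members were higher with TNF and 9 were lower. These were 34.4% and 28.1% of the members, against 23.4% and 27.7% of all genes.

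**Figure D1:**
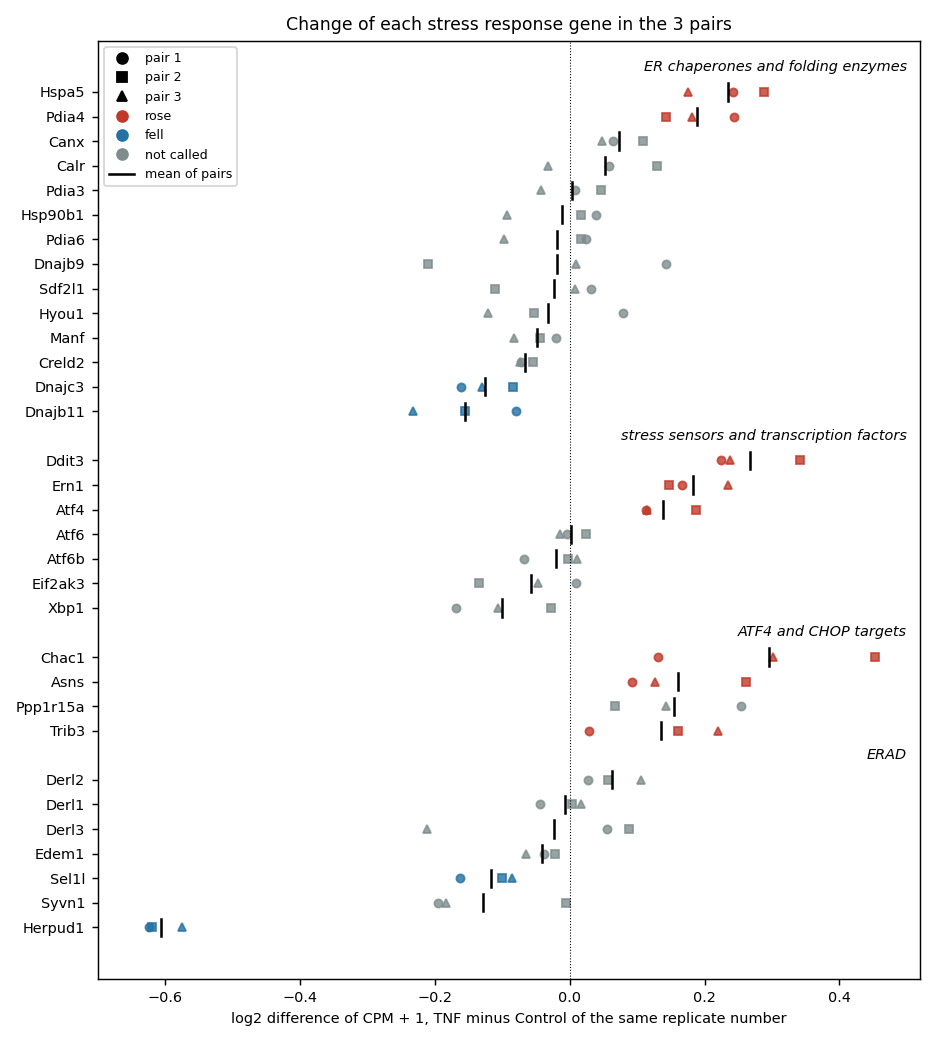
Each point is the log2 difference of CPM + 1 between the TNF and the Control library of one replicate number, for each of the 32 genes, grouped by role; bars mark the mean of the 3 pairs and colour the call in the blocked fit. Herpud1 lies apart at -0.62, -0.62 and -0.58. All 4 ATF4 and CHOP targets lie above 0 in every pair, as do 23.4% of all genes tested.

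Promoter sequences were looked at for the elements that are known to tie these genes to the stress factors. RefSeq windows (build GRCm38.p6, from 250 bases before to 50 after the annotated start) were held for 28 of the 32 genes; Atf6, Derl1, Hyou1 and Manf had no entry. The motifs, searched on both strands, were the ER stress response element ERSE (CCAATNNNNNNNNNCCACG), its variant ERSE-II (ATTGG and CCACG 1 base apart), the core of the unfolded protein response element UPRE (TGACGTG) and the C/EBP-ATF response element CARE (TGATGNAA), which ATF4 binds with C/EBP partners. No match overlapped one of another motif. ERSE was found in 9 of the 28 genes, or 32.1%, against 0.137% of 27025 genes with a window. ERSE-II was found in 2 (7.14%, against 0.0444%), UPRE in 1 (3.57%, against 2.22%) and CARE in 4 (14.3%, against 4.51%). These are matches of letters, not measured binding.

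The 2 genes with ERSE-II, Herpud1 and Dnajb11, were both among the 4 that fell, and their sites are shown for that reason. Other tested genes with a match went both ways, with Lgalsl lower (-0.23) and Rcl1 higher (0.14), and the rest did not pass. Distances are from the annotated RefSeq start, which lies inside the window. For Herpud1 that start lies upstream of the deposited gene start. The ERSE-II of Dnajb11 begins after the start, at base 8 of the transcript. The ERSE-II of Herpud1 lies 52 bases before the start, and Herpud1 also held a CARE 112 bases before it. Its 250 bases before the start (chr8:94386179-94386428, plus strand) are given first with both matches in capitals, followed by the site of Dnajb11 (chr16:22857843-22857871, plus strand), whose capitals are the ERSE-II.
Herpud1: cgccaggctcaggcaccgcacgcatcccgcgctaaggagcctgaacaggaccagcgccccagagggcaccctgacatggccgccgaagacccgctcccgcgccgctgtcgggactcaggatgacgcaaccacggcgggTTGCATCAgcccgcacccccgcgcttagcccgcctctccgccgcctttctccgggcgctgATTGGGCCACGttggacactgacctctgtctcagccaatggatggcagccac
Dnajb11: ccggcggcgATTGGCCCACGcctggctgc

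Hspa5 and Dnajc3 are shown because both hold an ERSE on the same strand and yet one rose and the other fell. Capitals mark the ERSE, on the plus strand of chr2:34772010-34772058 for Hspa5 and of chr14:118937812-118937860 for Dnajc3.
Hspa5: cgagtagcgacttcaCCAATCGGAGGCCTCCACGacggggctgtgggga
Dnajc3: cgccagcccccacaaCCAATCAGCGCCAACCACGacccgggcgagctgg
The other 7 genes with an ERSE (Calr, Canx, Creld2, Derl3, Hsp90b1, Pdia6 and Syvn1) did not pass the test in either direction. Of all genes tested 9.4% rose, 11.2% fell and the rest did not pass. Hspa5 also held the single UPRE core, 157 bases before its start.

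Besides Herpud1, which fell, CARE matches were held by Chac1, Trib3 and Asns, each of which rose. Of all genes tested, with or without a CARE, 9.4% rose and 11.2% fell. How often all genes with a CARE rose or fell was not counted. The match of Trib3 begins after the annotated start, at base 15 of the transcript. Capitals mark the match in the windows of Chac1 (chr2:119351034-119351071, plus strand), Trib3 (chr2:152344030-152344055, minus strand) and Asns (chr6:7693210-7693247, minus strand).
Chac1: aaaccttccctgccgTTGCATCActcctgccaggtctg
Trib3: agctcaggtTTACATCAgccgggcgg
Asns: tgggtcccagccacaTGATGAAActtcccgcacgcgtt

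Among the sensors, Ern1, which encodes IRE1α, was the one that rose. It was at 103, 99.7 and 120.0 CPM in TNF 1, 2 and 3, against 91.5, 90.0 and 102 CPM in Control 1, 2 and 3. TNF was higher in each pair, while TNF 2 lay below Control 3, so the groups overlapped. The log2 change was 0.18 (unpaired SE 0.09), with a limma adjusted p of 0.684 unpaired and 0.00292 blocked. Ern1 was counted over 90177 bases, of which 5.71% are exonic in GENCODE mouse release M21, so reads from introns can weigh in its value. The same holds for other members, such as Atf6 (5.65% exonic), Eif2ak3 (9.90%), Dnajc3 (11.7%), Pdia4 (13.8%), Asns (14.8%) and Dnajb11 (14.9%).

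Eif2ak3, the gene of PERK, was at 52.9, 65.4 and 61.2 CPM in TNF 1, 2 and 3, against 52.6, 71.9 and 63.2 CPM in Control 1, 2 and 3. Its pairs lay on both sides of 0, at 0.01, -0.14 and -0.05. Atf6 was at 174, 201 and 191 CPM in TNF 1, 2 and 3, against 175, 198 and 193 CPM in Control 1, 2 and 3, and its blocked 95% interval ran from -0.07 to 0.07 in log2. Atf6b, the close relative of Atf6, had pair differences of -0.07, 0.00 and 0.01. The blocked adjusted p of these 3 genes in limma were 0.425, 0.983 and 0.829.

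Xbp1, whose mRNA IRE1α splices, was at 156, 193 and 187 CPM in TNF 1, 2 and 3, against 175, 196 and 201 CPM in Control 1, 2 and 3. It was lower in each pair, with log2 differences of -0.17, -0.03 and -0.11, and missed the threshold at a blocked adjusted p of 0.0604 in limma; without replicate 2 that value was 0.0294. Ern1 and Xbp1 thus had changes of opposite sign, and the one of Ern1 passed. Spliced and unspliced Xbp1 were not separate in these values.

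Atf4 was at 296, 342 and 321 CPM in TNF 1, 2 and 3, against 274, 301 and 296 CPM in Control 1, 2 and 3. Each TNF library stood above the Control library of its number, and the groups overlapped through TNF 1. The log2 change was 0.14 (unpaired SE 0.08; adjusted p 0.787 unpaired and 0.00636 blocked, limma). The gene is small and 99.8% exonic over its counted 2362 bases.

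Ddit3 encodes CHOP, a factor that couples lasting ER stress to cell death. It was at 41.2, 56.5 and 41.9 CPM in TNF 1, 2 and 3, against 35.1, 44.4 and 35.4 CPM in Control 1, 2 and 3. Replicate 2 was the high one in both groups, and within each pair TNF was higher, by 0.22, 0.34 and 0.24 in log2. The mean change was 0.27 (unpaired SE 0.15; adjusted p 0.763 unpaired and 0.00173 blocked, limma). A stretch of 68 bases shared with the antisense neighbour Mars was left out of its counted length.

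The ATF4 and CHOP targets were higher in every pair, and 3 of the 4 passed. Of all genes tested, 23.4% were higher in all 3 pairs and 9.4% were called higher. Chac1, an enzyme that degrades glutathione, had the largest rise of the 32 genes. It was at 53.7, 70.8 and 42.9 CPM in TNF 1, 2 and 3, against 49.0, 51.5 and 34.7 CPM in Control 1, 2 and 3. The groups overlapped widely, with replicate 3 low and replicate 2 high in both, and the pair differences were 0.13, 0.45 and 0.30. The log2 change of 0.29 had an SE of 0.21 unpaired and 0.058 blocked, with limma adjusted p of 0.882 unpaired and 0.00215 blocked. The SD of its 3 pair differences was 0.161, so the blocked SE, which borrows from other genes, is smaller than its own pairs would give.

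Asns, asparagine synthetase, was at 158, 142 and 138 CPM in TNF 1, 2 and 3, against 148, 118 and 126 CPM in Control 1, 2 and 3. Its change of 0.16 passed in the blocked fit (adjusted p 0.00908, limma) and not without replicate 2 (0.101). Trib3, a pseudokinase that restrains ATF4 and the kinase AKT, was at 134, 167 and 149 CPM in TNF 1, 2 and 3, against 131, 149.7 and 128 CPM in Control 1, 2 and 3. Pair 1 differed by 0.03 alone, and the call (change 0.14, adjusted p 0.0259, limma) was lost without replicate 2 (0.111) or replicate 3 (0.186).

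Ppp1r15a encodes GADD34, which directs a phosphatase to eIF2α and so helps to end the response. It was at 39.7, 41.4 and 45.1 CPM in TNF 1, 2 and 3, against 33.1, 39.5 and 40.7 CPM in Control 1, 2 and 3. It was higher in each pair, with a change of 0.15 close to that of Asns, and did not pass (blocked adjusted p 0.0611, limma); under median-of-ratios scaling it did, at 0.043. The authors' deposited table listed it at an adjusted p of 0.0493. That deposited table by the authors had 13 of the 32 members under 0.05, these being Ppp1r15a and the 12 called here, with 10.6% of all tested genes higher and 13% lower in it.

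**Figure D2:**
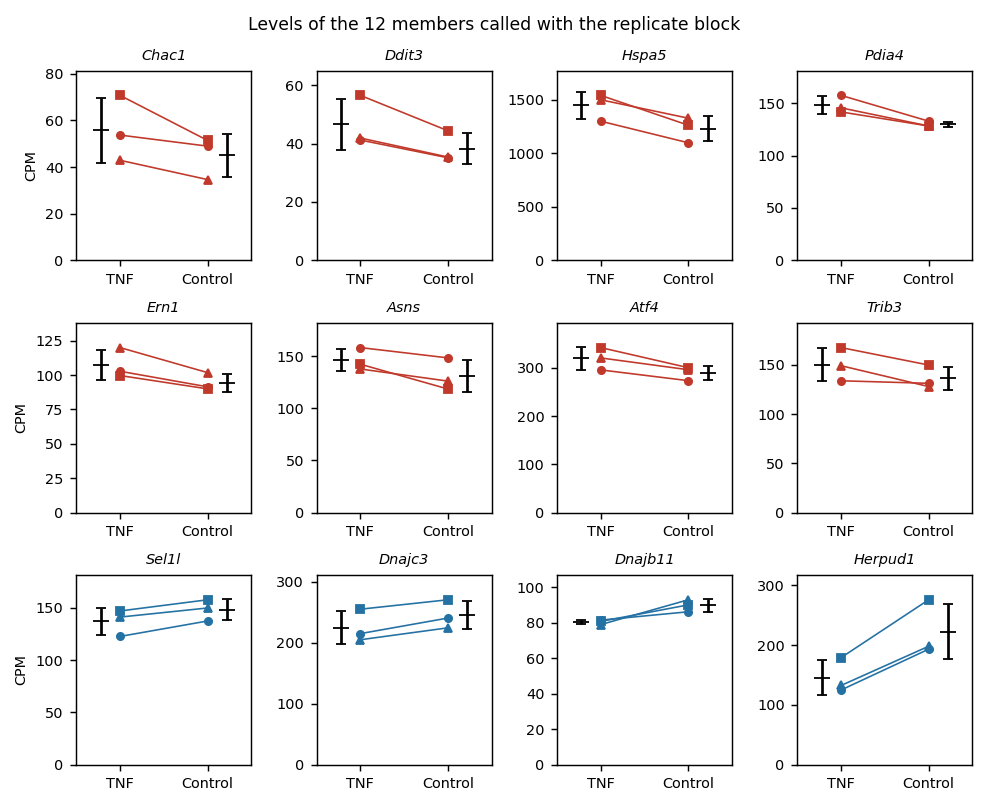
CPM of the 12 genes called in the blocked fit, with lines joining the TNF and the Control library of the same replicate number (circle 1, square 2, triangle 3) and black bars for the mean ± SD of 3 libraries; axes start at 0. Herpud1 has 125, 179 and 133 CPM with TNF, against 193, 276 and 198 CPM in Control, and the other 11 genes have flatter lines.

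The ER chaperones did not move as a block. Of 14 chaperones and folding enzymes 2 rose, 2 fell and 10 did not pass. The shares that rose and fell were 14.3% each, against 9.4% and 11.2% of all genes tested. Hspa5, the Hsp70 of the ER known as BiP and the usual gauge of ER stress, was at 1299.7, 1541 and 1499.6 CPM in TNF 1, 2 and 3, against 1098, 1262 and 1328 CPM in Control 1, 2 and 3. It was higher in each pair by 0.24, 0.29 and 0.18; TNF 1 lay below Control 3. The log2 change was 0.24 (unpaired SE 0.12), or 17.7%, with limma adjusted p of 0.712 unpaired and 0.000247 blocked. Pdia4, a disulfide isomerase of the ER, was at 157, 142 and 146 CPM in TNF 1, 2 and 3, against 133, 128 and 128 CPM in Control 1, 2 and 3. The groups of Pdia4 did not overlap, which held for 2 members with TNF above (6.59% of all genes) and 2 with TNF below (6.66%), and its change was 0.19 (adjusted p 0.421 unpaired and 0.00146 blocked, limma).

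Both chaperone genes that fell encode J-domain partners of BiP. Dnajb11 was at 81.6, 80.9 and 79.1 CPM in TNF 1, 2 and 3, against 86.3, 90.2 and 93.1 CPM in Control 1, 2 and 3. Every TNF library lay below every Control library, and the change was -0.16 (adjusted p 0.512 unpaired and 0.0154 blocked, limma). The call was lost without replicate 2 (0.0563) or replicate 3 (0.123). The gene was counted over 17138 of 21790 bases, and the 4652 bases left out equal its overlap with the antisense gene Gm30505. Dnajc3, which acts as a co-chaperone in the ER, was at 215, 255 and 205 CPM in TNF 1, 2 and 3, against 240.3, 270.3 and 224 CPM in Control 1, 2 and 3. Its pair differences were -0.16, -0.08 and -0.13, the groups overlapped, and the blocked adjusted p of 0.0125 became 0.0812 without replicate 1 (limma). Another J-domain gene, Dnajb9, which can hold IRE1α inactive, was at 57.4, 57.0 and 66.9 CPM in TNF 1, 2 and 3, against 51.9, 66.1 and 66.5 CPM in Control 1, 2 and 3. Its pairs differed in sign (0.14, -0.21 and 0.01). Among other folding enzymes, the J-domain gene Dnajc10 rose (0.12, blocked adjusted p 0.0396, limma), while Dnajc1, Dnajb12 and Dnajb14 did not pass. The call of Dnajc10 was lost without replicate 2 (0.237) or replicate 3 (0.0898).

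Hsp90b1, the Hsp90 of the ER, was at 435, 525 and 477 CPM in TNF 1, 2 and 3, against 424, 519 and 509 CPM in Control 1, 2 and 3. Its blocked 95% interval was -0.08 to 0.06 in log2, and the unpaired one -0.27 to 0.25. Hyou1, which exchanges nucleotide on BiP, had 115 ± 6.47 CPM with TNF and 118 ± 14.3 CPM in Control (SD, n = 3 each), and its pairs were mixed in sign. The blocked interval of Hspa5, 0.16 to 0.31, lay above those of both Hsp90b1 and Hyou1 (-0.12 to 0.06); the difference between genes was not tested.

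The lectin chaperones Calr and Canx hold glycoproteins for folding, with the isomerase Pdia3 as their partner. Calr was at 695, 852 and 662 CPM in TNF 1, 2 and 3, against 667, 779 and 676 CPM in Control 1, 2 and 3. Canx was at 716, 761 and 731 CPM in TNF 1, 2 and 3, against 685, 706 and 707 CPM in Control 1, 2 and 3. All Canx libraries with TNF lay above those of Control, yet the change of 0.07 did not pass (adjusted p 0.125 blocked, limma), and Calr was not higher in pair 3. Pdia3 was at 419, 429 and 419 CPM in TNF 1, 2 and 3, against 417, 415 and 432 CPM in Control 1, 2 and 3, with a change of 0.00 and a blocked interval of -0.06 to 0.07. Pdia6, another isomerase, had 209 ± 3.64 CPM with TNF and 212 ± 13.2 CPM in Control (SD, n = 3 each), and of the 3 isomerase genes Pdia4 was the one that passed.

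Sdf2l1, which works with Dnajb11 protein, was at 19.7, 15.3 and 21.8 CPM in TNF 1, 2 and 3, against 19.2, 16.6 and 21.7 CPM in Control 1, 2 and 3. Manf, a BiP-binding protein that cells can secrete, was at 72.1, 75.9 and 72.5 CPM in TNF 1, 2 and 3, against 73.1, 78.3 and 76.8 CPM in Control 1, 2 and 3, and Creld2, another ER stress gene, at 26.4, 28.6 and 33.1 CPM in TNF 1, 2 and 3, against 27.8, 29.7 and 34.8 CPM in Control 1, 2 and 3. Manf and Creld2 were lower in each pair, with pair differences between -0.08 and -0.02 in log2, and Sdf2l1 had mixed signs. The blocked adjusted p in limma was 0.865 for Sdf2l1, 0.442 for Manf and 0.471 for Creld2.

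Herpud1 had the largest change of the 32 genes. Its protein sits in the ER membrane and helps assemble the ERAD complex around the ubiquitin ligase HRD1. Herpud1 was at 125, 179 and 133 CPM in TNF 1, 2 and 3, against 193, 276 and 198 CPM in Control 1, 2 and 3. Every TNF library lay below every Control library, and replicate 2 was the high one in both groups. The pair differences of -0.62, -0.62 and -0.58 had an SD of 0.0268, the mean change was -0.61 (SE 0.18 unpaired and 0.033 blocked), which is -34.3% on the CPM + 1 scale. The limma adjusted p was 0.311 unpaired, 1.36e-08 blocked and at most 0.000118 over 11 alternatives with the block. Genes that were called and fell at least as far made up 0.862% of those tested. Herpud1 lies on chromosome 8 (mm10, 94386500 to 94395358, plus strand) and was counted over its whole span, of which 25.4% is exonic. An antisense transcript, Gm15890, overlaps 473 of these bases; as no source used here states the strand setting, reads of the 2 cannot be told apart.

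Of the other ERAD genes, Sel1l, the partner that stabilizes HRD1, was at 123, 147 and 141 CPM in TNF 1, 2 and 3, against 137, 158 and 149.8 CPM in Control 1, 2 and 3. It was lower in each pair and overlapped between groups, with a change of -0.12 and a blocked adjusted p of 0.0280 (limma), which was 0.177 without replicate 1 and 0.0680 without replicate 2. Syvn1, the gene of HRD1 itself, was at 51.2, 69.6 and 61.8 CPM in TNF 1, 2 and 3, against 58.8, 69.9 and 70.3 CPM in Control 1, 2 and 3. Its change of -0.13 was as large as that of Sel1l but did not pass (0.0762 blocked, limma), pair 2 being near 0; without replicate 2 the adjusted p was 0.0271.

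Edem1 hands glycoproteins to ERAD, and the derlins Derl1, Derl2 and Derl3 form part of the route through the membrane. Edem1 was at 172, 164 and 156 CPM in TNF 1, 2 and 3, against 176, 167 and 163 CPM in Control 1, 2 and 3. Derl1 had 169.9 ± 6.35 CPM with TNF and 171 ± 5.05 CPM in Control and Derl2 94.5 ± 3.00 CPM with TNF and 90.4 ± 1.45 CPM in Control (SD, n = 3 each). Their blocked intervals were -0.11 to 0.03, -0.08 to 0.06 and -0.02 to 0.14 in log2, so that changes of the size of Herpud1 lay outside them. The sign of Derl1 turned under median-of-ratios scaling (0.0025). Derl3 had 8, 11 and 16 reads in TNF and 6, 12 and 22 reads in Control, too few to place its change more closely than -0.33 to 0.29.

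**Figure D3:**
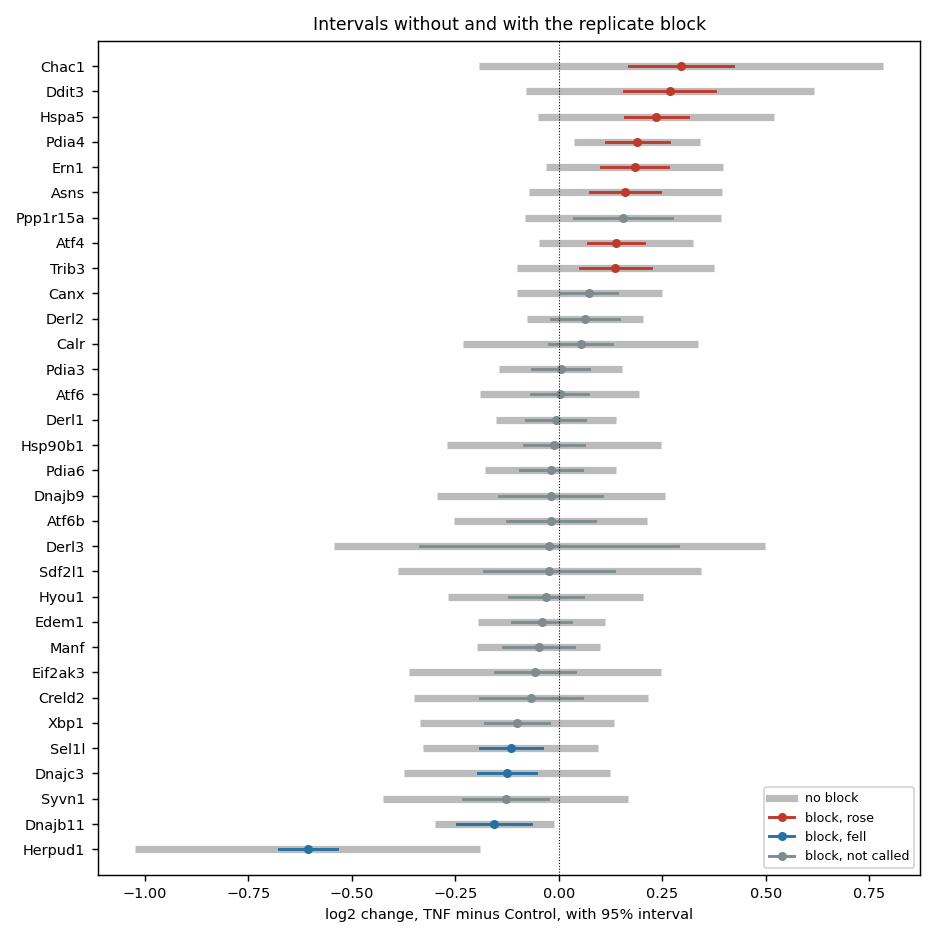
Log2 change of each of the 32 genes (TNF minus Control) with its 95% interval, from the fit without the block (wide grey bars) and with the replicate number as a block (thin bars, coloured by call); intervals are per gene, with no adjustment for the number of genes. The blocked interval of Herpud1, -0.68 to -0.54, is apart from that of every other member, and the unpaired bars of Herpud1, Dnajb11 and Pdia4 alone leave out 0.

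The rest of the network was read from 10 further lists of genes that are not members, drawn up with earlier results of these data known. Among 254 genes tested in them, 34 rose and 25 fell, while of all genes tested 9.4% rose and 11.2% fell. The unpaired limma fit called none of the 254 (8 higher and 5 lower at an unadjusted p under 0.05), nor did limma-voom without the block. Of the 35 genes named below from these lists for the size of their change, 16 passed the blocked fit whichever replicate number was left out, and 19 were lost in at least 1 case. Other targets of ATF4 and CHOP rose more often than they fell: 14 of 29 rose, 1 fell and 14 did not pass, with a median log2 change of 0.12 (median of all genes tested -0.01, with 9.4% of them higher); 0.13 was the median under both other scalings. The 4 with the largest change were Slc7a11, the cystine importer (0.56), the hormone Fgf21 (0.39), Slc7a5, a carrier of large neutral amino acids (0.34), and the lipoprotein receptor Vldlr (0.33). Slc7a11 was at 1045, 572 and 580.4 CPM in TNF 1, 2 and 3, against 861, 321 and 389 CPM in Control 1, 2 and 3, and its pairs differed by 0.28, 0.83 and 0.58. Slc7a5 had 53.3 ± 7.04 CPM with TNF and 41.7 ± 4.28 CPM in Control (SD, n = 3 each), with limma adjusted p of 0.415 unpaired and 0.000165 blocked. Fgf21 was low, at 5.12, 9.01 and 3.70 CPM in TNF 1, 2 and 3, against 4.81, 5.46 and 2.43 CPM in Control 1, 2 and 3. Its pairs differed by 0.08, 0.63 and 0.45, and its blocked adjusted p of 0.0436 (limma) became 0.309 without replicate 2 and 0.107 without replicate 3. Without replicate 2, 8 genes of the list rose. CARE was found in 8 of the 24 genes of this list with a promoter window.

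The list of aminoacyl-tRNA synthetases, several of which are ATF4 targets, also held the tRNA exporter Xpot (0.03, not called). Of its 21 genes 6 rose and 1 fell (28.6% and 4.76%, against 9.4% and 11.2% of all genes tested). Vars, for valine, led with 258 ± 25.9 CPM with TNF and 197 ± 6.68 CPM in Control (log2 0.39; SD, n = 3 each), followed by Rars (0.18), Wars (0.17) and Cars (0.17); 4 rose without replicate 2. Of 18 genes for eIF2, its exchange factor eIF2B and the regulators of both, 3 rose and 2 fell (16.7% and 11.1%). Impact, an inhibitor of the amino acid sensor GCN2, rose by 0.26 and the adaptor Nck1 by 0.22, while without replicate 2 the list had 1 gene that rose and 1 that fell. Eif2ak1, the kinase that senses haem, changed by -0.16 and Oma1, a mitochondrial protease upstream of it, by -0.27, both downward.

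Of 29 other folding enzymes and chaperones 1 rose and 4 fell (3.4% and 13.8%, against 9.4% and 11.2% of all genes tested). With replicate 2 or 3 left out 0 rose, while 1 fell without replicate 1 and 2 fell without replicate 2. Those that fell were Txndc11 (-0.22), Cnpy3 (-0.19), the isomerase Pdia5 (-0.18) and Creld1 (-0.13). Of 30 other ERAD genes 4 rose and 5 fell (13.3% and 16.7%), and without replicate 2 these counts were 2 and 0. Svip, an inhibitor of ERAD, had 9.39 ± 1.82 CPM with TNF and 12.3 ± 2.81 CPM in Control (log2 -0.35; SD, n = 3 each), while Rnf5 (-0.17) and Stub1 (-0.14), both ubiquitin ligases, fell and Erlin2 rose (0.15). Among 16 ER-bound factors and regulators 1 rose and 3 fell (6.25% and 18.75%). Nfya, a subunit of the factor that binds the CCAAT box, rose (0.18), and Crebrf (-0.21), Creb3l2 (-0.19) and Creb3l3 (-0.14) fell. Leaving out any replicate number left 0 that rose.

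Downstream of folding, 1 of 34 translocon, signal peptidase and oligosaccharyltransferase genes fell in the blocked limma fit (2.94%, Sec62, -0.13) and none rose. At an unadjusted p under 0.05, 0 were higher and 3 lower in that fit. Limma-voom with the block called 0 higher and 1 lower, and without replicate 3 limma called 0 lower. Of 34 genes of ER to Golgi transport 1 rose and 5 fell (2.94% and 14.7%), and 2 rose without replicate 2 or with median-of-ratios scaling. The coat genes Sar1b (-0.25), Sec24a (-0.23) and Sec16a (-0.22) were lower and the cargo receptor Surf4 (0.17) higher. Of 26 cytosolic heat shock genes Dnaja2 rose (0.10) and Fkbp4 fell (-0.12), or 3.85% each. In that list 3 rose under both other scalings, 2 with limma-voom and the block, and 0 without replicate 1, and 0 fell without replicate 3. Of 17 mitochondrial chaperones and proteases 3 rose and 2 fell (17.6% and 11.8%, against 9.4% and 11.2% of all genes tested). Without replicate 3 these counts were 2 and 0. Those named for the size of their change were the proteases Htra2 (0.27), Yme1l1 (0.19) and Lonp1 (0.19) and the chaperone Clpx (-0.14).

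**Figure D4:**
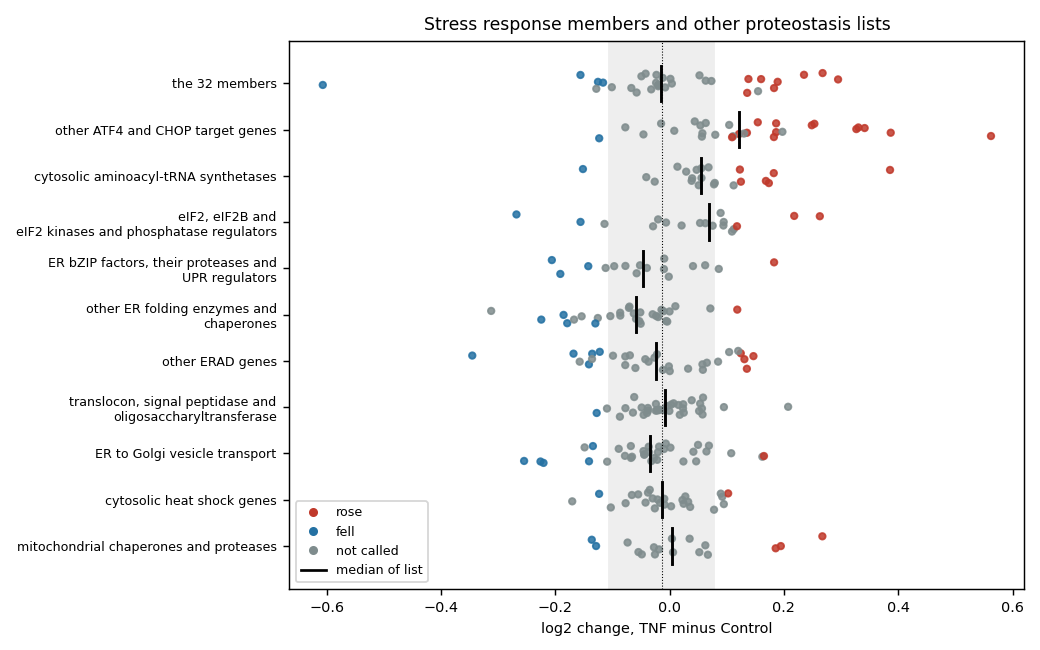
Log2 change in the blocked fit (TNF minus Control) of each tested gene, for the 32 members and 10 further lists, coloured by call; black bars are list medians, the dotted line the median of all genes tested and the grey band their middle 50%. The median of the other ATF4 and CHOP targets, 0.12, lies beyond the band, and those of the other lists lie within it.

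Markers of other liver cells were measured beside these results. Summed endothelial markers (16 of 16 found) ranged between 145 and 233 CPM with TNF and between 125 and 225 CPM in Control, 2 of 14 tested being called higher and 1 lower, and cholangiocyte markers (10 of 10) between 57.0 and 78.1 CPM with TNF and between 53.6 and 64.5 CPM in Control. Of 6 cholangiocyte markers tested, Sox9 rose (means of 35.01 CPM with TNF and 22.7 CPM in Control) and Pkhd1 fell (9.88 CPM with TNF and 12.5 CPM in Control). Stellate markers (12 of 14 found) ranged between 21.3 and 48.0 CPM with TNF and between 20 and 70.4 CPM in Control, and of 5 tested Reln fell (means of 31.2 CPM with TNF and 45.3 CPM in Control). The lower calls of endothelial, stellate and cholangiocyte markers were each lost without at least 1 replicate number, and their higher calls were not. Summed lymphocyte and neutrophil markers (18 of 20) lay between 0.287 and 0.591 CPM with TNF and between 0.290 and 1.10 CPM in Control. Macrophage markers (18 of 18) summed to between 376 and 478 CPM with TNF and between 348 and 430 CPM in Control, and Cd14 among them rose, from 3 tested. Nearly the whole sum came from Cd68 (means of 179 CPM with TNF and 179.7 CPM in Control), Slc40a1 (158 CPM with TNF and 150.04 CPM in Control) and Cd14 (84.3 CPM with TNF and 50.3 CPM in Control). The other 15, Adgre1 and Clec4f among them, had at most 13 reads over the TNF libraries and at most 19 over the Control libraries. Of 15 hepatocyte markers 7 fell and none rose in the blocked limma fit (9 lower and 0 higher at an unadjusted p under 0.05; 8 lower and 1 higher with limma-voom), with a median log2 change of -0.14. Among them Hnf4a, a transcription factor of hepatocyte identity, was at a mean of 418 CPM with TNF and 565 CPM in Control. Mean levels of Cps1 were 737 CPM with TNF and 1975 CPM in Control, and of Tdo2 115 CPM with TNF and 195 CPM in Control. Trf was higher, at 10665 CPM with TNF and 9951 CPM in Control. Ass1 was low in both groups, at 2.82 CPM with TNF and 3.49 CPM in Control. The part of other cells, or of the lower hepatocyte markers, in the changes of the 32 genes was not tested.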

How the data were processed

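Polyadenylated RNA of 6 libraries was sequenced. Reads were aligned with STAR 2.6.1a to mm10, per the submitters' processing notes. How reads were counted, and on which strand, is not given in the sources used here. Deposited by the authors were log2 CPM values per gene, with their own fold changes (log2), likelihood ratios (a score) and p-values. In 84.97% of genes the deposited counted length equals the whole gene span, so introns are included. Every one of 118584 values gave whole reads (tolerance 0.001 reads). Library totals of 17612060 to 25114289 reads put the limit of 3 reads at 0.124 to 0.166 CPM, for counting error only. Tested were 12293 genes, with at least 10 reads (at the size of a median library) in 3 libraries and 15 overall; 7471 were not.

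Log2(CPM + 1) was fitted with limma 3.58.1 (R 4.3.3, trended prior), Benjamini-Hochberg adjusted over all 12293 genes, with and without the replicate number as a block, and checked on simulated data. With log2 values deposited, limma-voom on the recovered reads took the place of a count model. A pseudocount understates changes of low genes. Replicate numbers come from the titles; deviations from group means of same-numbered libraries correlated at 0.78, 0.79 and 0.79 over genes, and of others at -0.47 to -0.34, so the numbers were taken as pairs. The labels do not say whether replicates are separate animals or cultures, so p-values measure the spread between these samples, which may be technical. Within a group no pair of libraries agreed within sampling noise (chi-square per degree of freedom 23.4 to 41.7). Alternatives were voom, 2 scalings, 2 pseudocounts, the deposited values, other filters, a 1.5-fold threshold and leaving out libraries. All 32 genes are named. From each further list up to 4 called genes with the largest change are named. Atf5, Dnajc10, Dnajc1, Dnajb12, Dnajb14 and single cell type markers are also named, chosen after their values were seen. Members and lists were chosen with earlier results of these data known. Intervals are 95%, and protein sequences were not analysed here.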

Additional observations from a re-analysis of the deposited data

How the results depend on the processing

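The number of the 32 genes called with TNF was 0 higher and 0 lower without the block and 8 higher and 4 lower with the replicate block. No member passed under any of 14 alternatives without the block. With it, 7 of the 12 called genes (Hspa5, Pdia4, Ern1, Atf4, Ddit3, Chac1 and Herpud1) passed in all 11 alternatives that kept the adjusted p as the sole threshold, and none of the 12 changed sign. Fitting genes with no filter left 2 lower, and the calls of Dnajb11 (0.0517), Trib3 (0.0929) and Sel1l (0.0592) were lost; more genes were tested there. A threshold of 1.5-fold left 0 higher and 1 lower, Herpud1. Leaving out one replicate number gave 6 to 8 higher and 2 to 4 lower. Signs changed under an alternative for 13 genes, none of which was called. When single libraries were left out without the block, log2 changes ranged over -0.10 to 0.055 for Hsp90b1, -0.13 to 0.034 for Hyou1, -0.14 to 0.040 for Dnajb9, -0.13 to 0.11 for Sdf2l1, -0.15 to 0.023 for Creld2, -0.057 to 0.12 for Calr and -0.0072 to 0.022 for Pdia3. They ranged over -0.055 to 0.030 for Pdia6, -0.18 to 0.047 for Eif2ak3, -0.052 to 0.058 for Atf6, -0.096 to 0.041 for Atf6b, -0.037 to 0.016 for Derl1 and -0.16 to 0.16 for Derl3. When one replicate number was left out with the block, they ranged over -0.038 to 0.028 for Hsp90b1, -0.087 to 0.013 for Hyou1, -0.10 to 0.076 for Dnajb9, -0.051 to 0.020 for Sdf2l1 and -0.018 to 0.027 for Pdia3, and over -0.041 to 0.020 for Pdia6, -0.0097 to 0.0096 for Atf6, -0.035 to 0.0040 for Atf6b, -0.020 to 0.010 for Derl1 and -0.078 to 0.071 for Derl3. Median-of-ratios scaling gave 0.0025 for Derl1 in both fits. Leaving out 1 library of a group relies on the spread of the others. At this depth Derl3, with 6 to 22 reads per library, is the member whose reads limit the comparison most. The cause of lost calls was not tested beyond what each setting changes.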

Other observations

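Of the 12 genes in the RefSeq promoter table with an ERSE-II match, 7 were tested, Herpud1 and Dnajb11 among them. The other 5, named after their values were seen, had blocked log2 changes of -0.23 for Lgalsl (adjusted p 0.0205), 0.14 for Rcl1 (0.0493), 0.17 for Lrif1 (0.0792), 0.03 for Krtcap2 (0.618) and 0.01 for Rbm39 (0.907) in limma. Of these 5, 1 fell, 1 rose and 3 did not pass. The single called gene of the further ATF4 and CHOP targets that was lower was Atf5, itself a transcription factor of this response, at -0.12 (0.0136).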
